A study of Homo sapiens with 24 samples.

Results

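The data were examined for genes whose response to ADAR1 knockdown, not whose level, differed between mesenchymal-like and basal-like triple-negative breast cancer lines. All 24 libraries of the series entered the comparison. They come from 4 established human lines, BT549 and MDAMB231 (called mesenchymal here) and HCC1806 and MDAMB468 (called basal here), all of the triple-negative type, which is defined by the lack of oestrogen receptor, progesterone receptor and HER2. Knockdown cells (shADAR1) carried a lentiviral hairpin directed at ADAR1, and control cells (shNT) one with no target. Both arms had 3 biological replicates in each line, so that every class had 12 libraries and every line 6. All cells, controls included, had been infected for 24 h in protamine sulfate at 10 µg/ml and selected in puromycin at 2 µg/ml for 72 h, and no other treatment or genotype is given in the labels. The hairpin sequence and the number of hairpins are not given in the sources used here, so effects of the sequence and of ADAR1 loss cannot be told apart. For each gene the class difference is the mean shADAR1 minus shNT log2 change of BT549 and MDAMB231 minus the mean of HCC1806 and MDAMB468. A positive value means a more positive response in the mesenchymal lines. Of 21352 genes tested, 981 had a class difference with an adjusted p under 0.05, and these are described as called.

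ADAR1, the product of ADAR, converts adenosine to inosine in double-stranded RNA. This edit marks cellular double strands as self, and in its absence such RNA can be bound by the sensors MDA5 and PKR, which lead to interferon production and to arrest of translation. MDM2, which the series title names, is the ubiquitin ligase best known for degrading p53, and the title also names lipid remodelling and ferroptosis, a cell death driven by peroxidised membrane lipids.

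The classes are names given to pairs of lines and not labels of the samples, so their markers were checked in the shNT libraries. The summed level of 15 epithelial markers was 7.57 CPM in BT549, 1075 in MDAMB231, 5118 in HCC1806 and 5981 in MDAMB468. The 11 mesenchymal markers summed to 9638, 8093, 1257 and 281.5 CPM in the same order. The names held for the sums, although MDAMB231 retained keratin transcripts and HCC1806 was not free of mesenchymal markers. They did not hold for every marker. MDAMB231 had less TWIST1 (0 against 6.502 CPM), CDH2 (0.2539 against 29.98) and CAV1 (377.4 against 533.5) than HCC1806. The remaining mesenchymal markers were higher in MDAMB231, whose sum was largest in VIM (4305 CPM) and AXL (2195). The shNT levels of CDH2 and TWIST1 did not pass between the classes (adjusted p = 0.08273 and 0.8673). Of the receptor transcripts, ESR1 was 0.01183 CPM in BT549, 0.4622 in MDAMB231, 19.05 in HCC1806 and 6.846 in MDAMB468 (adjusted p = 8.02e-16 between the classes). ERBB2, which encodes HER2, was 95.45, 89, 100.1 and 75.95 CPM in the same order, and PGR 0.03082, 0.7369, 0.06299 and 0. Each class has only 2 lines, so a class difference is a statement on these 4 lines: with lines as the unit, an exact permutation test cannot go below p = 0.333. In these bulk libraries fewer cells with a transcript and less transcript per cell cannot be told apart.

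Total counts ran from 10370645 to 97218217 per library. The calls come from a fit in which the same-numbered shADAR1 and shNT libraries of a line were paired as a block. Most of the calls depended on it. Without the block 24 genes were called (0.112% of those tested), with blocks in BT549, HCC1806 and MDAMB231 only 440 were called, and with lines as the unit limma called 0 genes (1932 at an unadjusted p under 0.05). All 981 genes had the same sign of difference in each of these 3 fits. These fits change the error but hardly the estimate, whose median size was 0.345 as reported and 0.344, 0.346 and 0.348 in the 3 fits. The shared sign is therefore no support for the calls. Of the genes named below by rule, ANTXR1, HSD17B10, MICB, MLX, OAT and ST14 were also called without the block, and no other was.

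The 981 calls were 4.59% of the genes tested. In 372 genes (1.74% of all tested) the mesenchymal response was the higher, and in 609 (2.85%) it was the lower. Upper-quartile scaling gave 516 and 510 genes, so the excess of lower calls depends on the scaling. The 2 sides of the contrast were uneven: the mean response passed the threshold for 2947 genes (13.8%) in the mesenchymal lines and for 863 (4.04%) in the basal lines. Within classes fewer genes passed, 180 (0.843%) between MDAMB231 and BT549 and 30 (0.141%) between HCC1806 and MDAMB468. These contrasts set 1 line against 1, whereas the class contrast sets a mean of 2 lines against a mean of 2. They are less precise, so the lower counts do not show that the lines of a class respond alike.

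Most called genes moved in the mesenchymal lines and little in the basal lines. Among the 981, the mesenchymal mean alone passed the threshold in 667 and the basal mean alone in 111. Both passed with the same sign in 122, of which 115 had the larger change in the mesenchymal lines, and both passed with opposite signs in 13. Neither passed in 68. The median size of the mesenchymal mean was 0.31 on the log2 scale among called genes and 0.15 among all tested genes, while that of the basal mean was 0.11 and 0.12. Both lines of one class lay above both lines of the other in 940 of the 981 genes, against 40.9% of all tested genes. Since these counts use the values that made the calls, they describe the calls and do not support them.

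**Figure D1:**
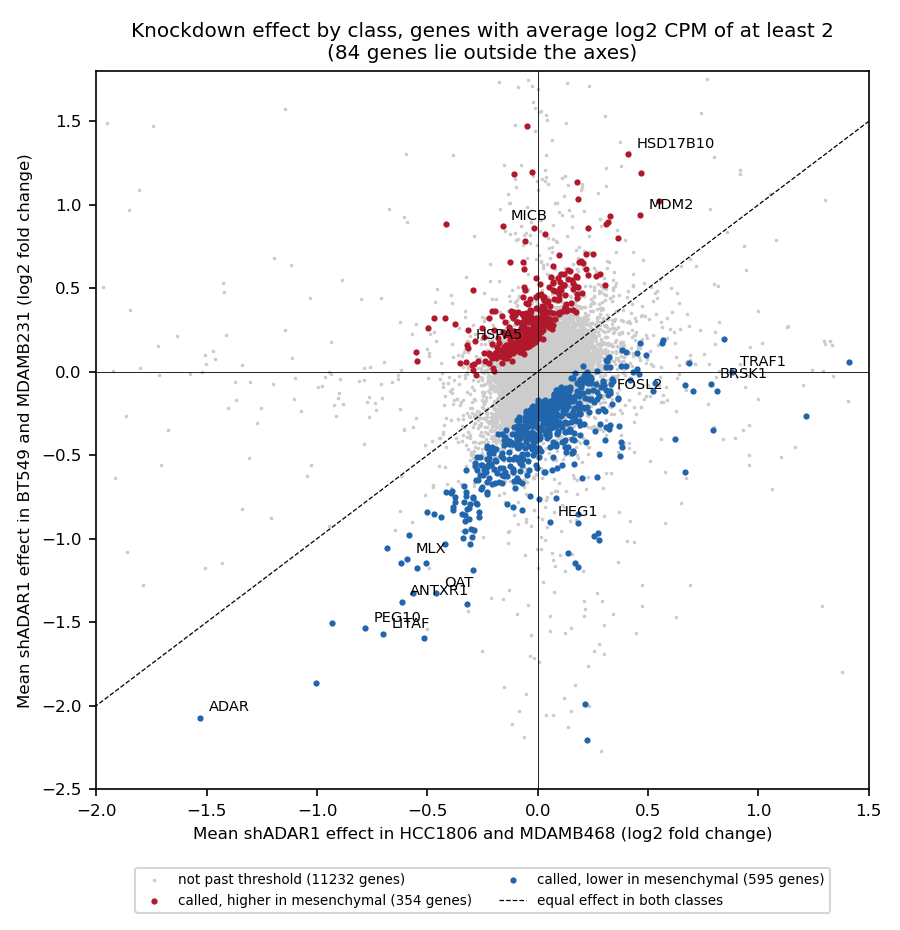
Mean shADAR1 effect (log2 fold change) in the mesenchymal lines (y) against the basal lines (x) for 12181 genes with an average log2 CPM of at least 2; red and blue points are called genes with a higher (354) or lower (595) mesenchymal response, grey points are not past the threshold, the dashed line marks equal effects, and 84 genes lie outside the axes. The called genes are spread mainly along the vertical axis, and ADAR, PEG10, ANTXR1 and MLX fell on both axes but further on the vertical one.

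The target itself fell further in the mesenchymal lines. In BT549, ADAR was 519, 503 and 527 CPM in shNT and 132, 117 and 155 in shADAR1. In MDAMB231 it was 276, 297 and 305 CPM against 54.6, 66.3 and 70.9. HCC1806 had 370, 334 and 358 CPM against 86.5, 128 and 137, and MDAMB468 had 408, 397 and 444 against 122, 169 and 173. The arms did not overlap in any line. The share of ADAR left, from the means of 3 libraries, was 26.1% in BT549, 21.8% in MDAMB231, 33.1% in HCC1806 and 37.1% in MDAMB468. The class difference was -0.54 (SE 0.11, adjusted p = 0.0041), and it was not called without the block (adjusted p = 0.187) or without MDAMB231 (-0.42, adjusted p = 0.126). The depth of the knockdown therefore moved with class in the paired fit, and its part in the other class differences was not tested.

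MDM2 rose in all 4 lines and rose further in the mesenchymal ones. Its levels in shNT and shADAR1 were 38.8 ± 7.89 and 73.6 ± 2.02 CPM in BT549 and 66.0 ± 8.36 and 127 ± 17.1 in MDAMB231 (mean ± SD, n = 3 each). They were 72.7 ± 5.25 and 94.4 ± 6.08 CPM in HCC1806 and 70.9 ± 1.46 and 105 ± 8.49 in MDAMB468. The arms were separate in every line. The class difference was 0.47 (SE 0.085, adjusted p = 0.0024), and it was lost without HCC1806.

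A group of genes fell in every line with a larger fall in the mesenchymal ones. Of the 122 called genes whose class means both passed with the same sign, 93 fell. Their median basal fall was 42.2% of the mesenchymal fall on the log2 scale (quartiles 36.8% and 48.8%). These genes were kept because their class difference was called, so a share well under 100% was largely set by that choice. Over all 428 tested genes with both class means past the threshold and the same sign, rises included, the median was 65.4% (quartiles 48.4% and 100%). For ADAR the basal fall was 73.8% of the mesenchymal one. ANTXR1, a cell surface collagen-binding protein that also serves as an anthrax toxin receptor, was 199, 206 and 178 CPM in BT549 shNT and 88.7, 86.1 and 86.1 in shADAR1. In MDAMB231 it was 117, 125 and 132 CPM against 35.7, 42.5 and 45.4. HCC1806 had 26.5, 23.9 and 21.2 CPM against 19.0, 17.5 and 18.2, and MDAMB468 had 77.9, 74.6 and 74.7 against 35.3, 44.0 and 45.9. Every shADAR1 library was below every shNT library of its line. The log2 falls were -1.16 and -1.60 against -0.37 and -0.86, with a class difference of -0.76 (SE 0.075, adjusted p = 1.26e-05) that was also called without the block (adjusted p = 0.0037).

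MLX, the dimerisation partner of the glucose-responsive transcription factors MondoA and ChREBP, fell by a nearly equal amount in both lines of a class. It changed by -1.09 in BT549 and -1.15 in MDAMB231, against -0.60 in HCC1806 and -0.58 in MDAMB468, all with separate arms. Its class difference was -0.53 (SE 0.078, adjusted p = 0.00038, 0.038 without the block). PEG10, a retrotransposon-derived imprinted gene, changed by -1.67 and -1.40 against -0.57 and -0.998, a difference of -0.76 (SE 0.071, adjusted p = 7.52e-06); its arms overlapped in HCC1806. LITAF, a protein of late endosomes, changed by -1.25 and -1.89 against -0.57 and -0.84, and the mitochondrial enzyme OAT, ornithine aminotransferase, by -0.96 and -1.69 against -0.51 and -0.42. OAT also differed between MDAMB231 and BT549 (adjusted p = 0.016). B4GALT6, a lactosylceramide synthase, had a class difference of -0.86 (SE 0.22, adjusted p = 0.028) that was lost in 10 of the 24 fits that each left out 1 library, with adjusted p up to 0.10. In the paired fit a library without its partner adds nothing to the response. The 2 fits that left out either arm of a pair therefore largely repeated each other, and the 24 amount to little more than 12 separate checks.

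Of 10 genes taken from earlier results because they fell in several lines, all 10 fell past the threshold in each class mean. For 8 of these the mesenchymal fall was the larger at the threshold, with a median class difference of -0.56 against 0.00 over all genes tested. They were chosen on these libraries, so their direction is not independent evidence. The exceptions were ISOC1 (-0.30, adjusted p = 0.11) and TMCC3 (1.28, adjusted p = 0.15). Left-out lines changed the count: 4 were called without MDAMB231 and 5 without HCC1806.

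These falling genes often carried the heptamer ATCTTCA in their 3′ untranslated region (3′ UTR), read on the transcript strand only. The heptamer was taken up with earlier results of these data known, and a match is a description and not a site of action. It was found in GENCODE 29 3′ UTRs, one transcript a gene, on GRCh38. It stood in 14.2% of 16205 tested coding genes, with a median 3′ UTR of 1229 bases. Among called genes with the lower mesenchymal response it stood in 33.2% of 600, with a median 3′ UTR of 1916 bases. Where both class means had fallen it stood in 60.9% of 92, where only the mesenchymal mean had fallen in 31.7% of 379, and where the mesenchymal mean had not passed in 17.7% of 113. It stood in 8.77% of the 365 genes with the higher mesenchymal response, whose median 3′ UTR was 1606 bases. A second heptamer, GTGGGCC, stood in 10.4% of tested genes, 20.8% of the lower called genes and 40 of the 365 higher ones. The share with ATCTTCA was thus highest in the genes that fell in both classes and was below that of all tested genes in those with the higher response. The lower called genes also had longer 3′ UTRs, and the part of length was not tested.

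The windows of 27 bases below show the heptamer in capitals in the genes just described and in 3 further falling genes (DESI2, a cysteine peptidase; UBE2N, which builds lysine-63 ubiquitin chains; HEG1, a membrane mucin-like receptor that fell in the mesenchymal lines only), so that the flanking bases can be compared.
ADAR, chr1:154582414-154582440, minus strand: gcccactgttATCTTCActttctttgt
ANTXR1, chr2:69248038-69248064, plus strand: acaaggtgatATCTTCAtagtgggcta
ANTXR1, chr2:69249025-69249051, plus strand: atagttatggATCTTCAatgcctctga
MLX, chr17:42571744-42571770, plus strand: gccccattttATCTTCAgcggagccgc
MLX, chr17:42572985-42573011, plus strand: tgacgttgtaATCTTCAtccgtctcta
PEG10, chr7:94665766-94665792, plus strand: aggctactgtATCTTCAggccacctga
PEG10, chr7:94666762-94666788, plus strand: tgggcatttcATCTTCAgtcccctcat
LITAF, chr16:11548917-11548943, minus strand: tctgtgccagATCTTCAgtgccccttt
DESI2, chr1:244706117-244706143, plus strand: aaagaagaaaATCTTCAtgtcttcaaa
UBE2N, chr12:93409907-93409933, minus strand: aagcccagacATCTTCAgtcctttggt
HEG1, chr3:124966348-124966374, minus strand: gtagtaaagtATCTTCAttagcgttat
Not all sites are shown: PEG10 had 4, DESI2 3 and B4GALT6, with no window here, 3. OAT, although among the largest differences, had no match in the transcript read, and neither had TRAF1, TENT5B or BRSK1. Among the named genes with the higher mesenchymal response, HSPA5, COL4A2 and AGPAT4 had 1 match each, with no window here, and the others none.

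In a larger group the fall was seen in the mesenchymal mean alone. HEG1 was 194, 180 and 237 CPM in BT549 shNT against 111, 110 and 161 in shADAR1, and 219, 298 and 295 against 83.1, 141 and 158 in MDAMB231. In HCC1806 it was 14.7, 18.6 and 11.95 CPM against 12.6, 15.3 and 14.9, and in MDAMB468 8.94, 8.67 and 9.11 against 9.01, 9.08 and 11.5. The arms were separate in both mesenchymal lines and overlapped in both basal lines, where the level was also far lower. The class difference was -0.96 (SE 0.10, adjusted p = 1.94e-05). MAN1A1, a Golgi mannosidase that trims N-glycans, had a class difference of -0.89 (SE 0.12, adjusted p = 0.00025), with a basal mean that did not pass (-0.29, adjusted p = 0.094) although the arms were separate in MDAMB468. TENT5B, a poly(A) polymerase family member, had one of -0.90 (adjusted p = 0.0013) that rested on BT549, where it changed by -1.03, and was lost without that line. TENT5B was low in BT549, with 1.35, 1.9 and 0.84 CPM in shNT against 0.51, 0.82 and 0.69 in shADAR1. CAV2, a caveolar coat protein, changed by -0.64 and -0.52 against -0.12 and -0.10 (difference -0.47, SE 0.069, adjusted p = 0.00038).

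HSD17B10 had the second largest positive class difference among genes expressed in every line, and it rose in all 4. The gene encodes a mitochondrial dehydrogenase that is also a subunit of mitochondrial RNase P. Its levels in BT549 were 29.2, 27.3 and 33.4 CPM in shNT and 61.2, 74.5 and 57.2 in shADAR1. In MDAMB231 they were 11.4, 12.8 and 13.5 CPM against 35.5, 42.0 and 31.4. HCC1806 had 24.9, 29.7 and 31.1 CPM against 36.2, 37.6 and 37.4, and MDAMB468 had 33.8, 42.4 and 40.3 against 47.6, 55.4 and 55.1. No arm overlapped with the other in any line. The rises of 1.10 and 1.51 against 0.37 and 0.44 gave a class difference of 0.90 (SE 0.10, adjusted p = 4.22e-05, 0.0037 without the block).

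DYNLRB1, a light chain of cytoplasmic dynein, followed the same order, with rises of 1.04 and 1.34 against 0.43 and 0.51, separate arms in every line and a difference of 0.72 (SE 0.14, adjusted p = 0.0036). The difference was lost without HCC1806. TMED4, a cargo receptor between endoplasmic reticulum and Golgi, and EIF4EBP2, a repressor of cap-dependent translation, were taken from the 24 genes called in both fits and so were chosen after their values were seen. TMED4 rose by 0.72 and 1.05 against 0.27 and 0.35 (difference 0.57, adjusted p = 0.00017, 0.015 without the block), and EIF4EBP2 by 0.76 and 0.96 against 0.18 and 0.28 (difference 0.63, adjusted p = 1.94e-05, 0.025 without the block).

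MICB had the largest positive class difference among genes expressed in every line, and its rise was seen in the mesenchymal lines only. It encodes a stress-induced surface ligand of the NK cell receptor NKG2D. In BT549 it was 14.8, 14.6 and 19.0 CPM in shNT against 29.3, 27.2 and 27.5 in shADAR1, and in MDAMB231 52.3, 46.9 and 51.7 against 116, 89.6 and 88.7. In HCC1806 it was 70.3, 114 and 78.1 CPM against 67.4, 110 and 64.7, and in MDAMB468 17.96, 20.6 and 24.5 against 15.8, 20.7 and 18.9. The arms were separate in the mesenchymal lines and overlapped in the basal lines, and the shNT level was lower in the mesenchymal lines (-0.59, adjusted p = 0.00052), although MDAMB231 lay above MDAMB468. These values gave a class difference of 1.03 (SE 0.088, adjusted p = 2.82e-06, 0.028 without the block).

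Further rises passed in the mesenchymal mean and not in the basal mean. CPA4, a carboxypeptidase, rose by 0.80 and 0.85, with -0.05 and 0.11 in the basal lines (difference 0.79, SE 0.12, adjusted p = 0.00038). Its shNT means were far apart, 3.19 CPM in BT549 and 6.72 in MDAMB231 against 181.5 in HCC1806 and 125.1 in MDAMB468. PFKFB4, which sets the level of the glycolytic activator fructose 2,6-bisphosphate, rose by 0.88 and 0.35, with 0.11 and -0.24 (difference 0.68, SE 0.095, adjusted p = 0.00026). ERO1A, the oxidase that recharges protein disulphide isomerase, rose by 0.66 and 0.61, with 0.02 and 0.12 (difference 0.56, SE 0.078, adjusted p = 0.00026, 0.038 without the block); it was named after its value was seen. PLA2G4C, a phospholipase A2, had a class difference of 0.85 (SE 0.21, adjusted p = 0.020), which was lost in 10 of 24 fits that left out 1 library. AOC2, an amine oxidase, had a difference of 0.76 (adjusted p = 0.048) with neither class mean past the threshold, lost in 18 of 24 such fits. The heat shock protein gene HSPA1A had one of 0.67 (adjusted p = 0.041) from a basal mean of -0.55, lost in 14 of 24, and its reads can be shared with the near-identical copy HSPA1B (0.61, adjusted p = 0.014).

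**Figure D2:**
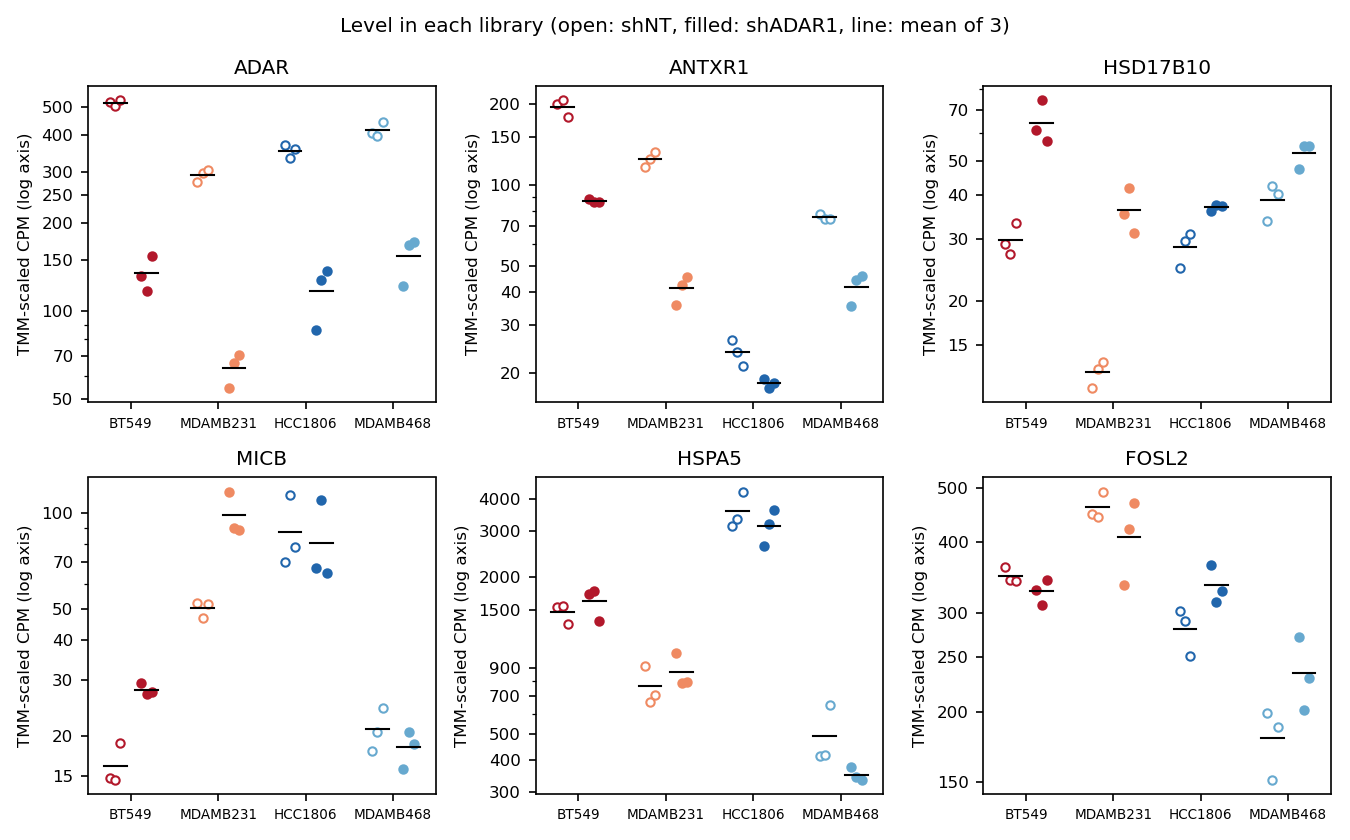
TMM-scaled CPM (log axis) of ADAR, ANTXR1, HSD17B10, MICB, HSPA5 and FOSL2 in each of the 24 libraries by line; open points are shNT, filled points shADAR1 and black lines the mean of 3. ANTXR1 fell and HSD17B10 rose in every line but further in BT549 and MDAMB231, MICB rose in those lines only, and FOSL2 shADAR1 points lie above shNT in HCC1806 and MDAMB468 only.

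Fewer genes responded in the basal mean alone. BRSK1, a kinase best known from neuronal polarity, was 4.31, 4.89 and 3.51 CPM in HCC1806 shNT against 8.60, 5.58 and 7.50 in shADAR1, and 1.06, 2.07 and 1.63 against 2.46, 3.03 and 3.05 in MDAMB468. Both basal lines had separate arms, whereas in the mesenchymal lines, near 20 CPM, the arms overlapped and the changes were -0.12 and -0.03, for a class difference of -0.86 (SE 0.15, adjusted p = 0.0016). TRAF1, an adaptor of TNF receptor signalling, had a class difference of -0.88 (adjusted p = 0.00057) that came from HCC1806, with a rise of 1.65 there and 0.11 in MDAMB468. The 2 basal lines differed from each other (adjusted p = 0.0025), and without HCC1806 the class difference was -0.13 (adjusted p = 0.855).

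Opposite responses with each class mean past the threshold and both lines of a class alike were found in 10 genes. The 6 named here were small changes. JDP2, a repressor of AP-1, was 4.12, 4.21 and 5.84 CPM in BT549 shNT against 3.56, 3.52 and 5.27 in shADAR1, and 7.11, 13.9 and 7.56 against 3.26, 7.92 and 5.01 in MDAMB231. In HCC1806 it was 31.97, 29.6 and 30.3 CPM against 44.4, 35.1 and 42.7, and in MDAMB468 24.1, 30.58 and 28 against 27.9, 30.65 and 33.01. All 6 mesenchymal pairs were lower and all 6 basal pairs higher in shADAR1, although the arms were separate in HCC1806 only. The class means were -0.49 (adjusted p = 5.03e-05) and 0.28 (adjusted p = 0.0063). The class difference was -0.77 (SE 0.093, adjusted p = 5.76e-05).

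LOX, which cross-links collagen, had class means of 0.18 and -0.28 (difference 0.47, adjusted p = 0.00088), lost without MDAMB468, and HSPE1, the mitochondrial co-chaperonin, 0.21 and -0.25 (0.46, adjusted p = 0.0051), lost without MDAMB231 or HCC1806. In the other direction, the shear-responsive factor KLF2 had class means of -0.32 and 0.33, the NF-kappaB cofactor BCL3 -0.31 and 0.28, and the RhoA exchange factor NET1 -0.20 and 0.14. KLF2 and BCL3 were also lost without MDAMB231 or HCC1806. Only BCL3 of these 6 had separate arms in 3 lines, and each of the 6 class differences was lost without the block (adjusted p from 0.268 for BCL3 to 0.795 for LOX).

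**Figure D3:**
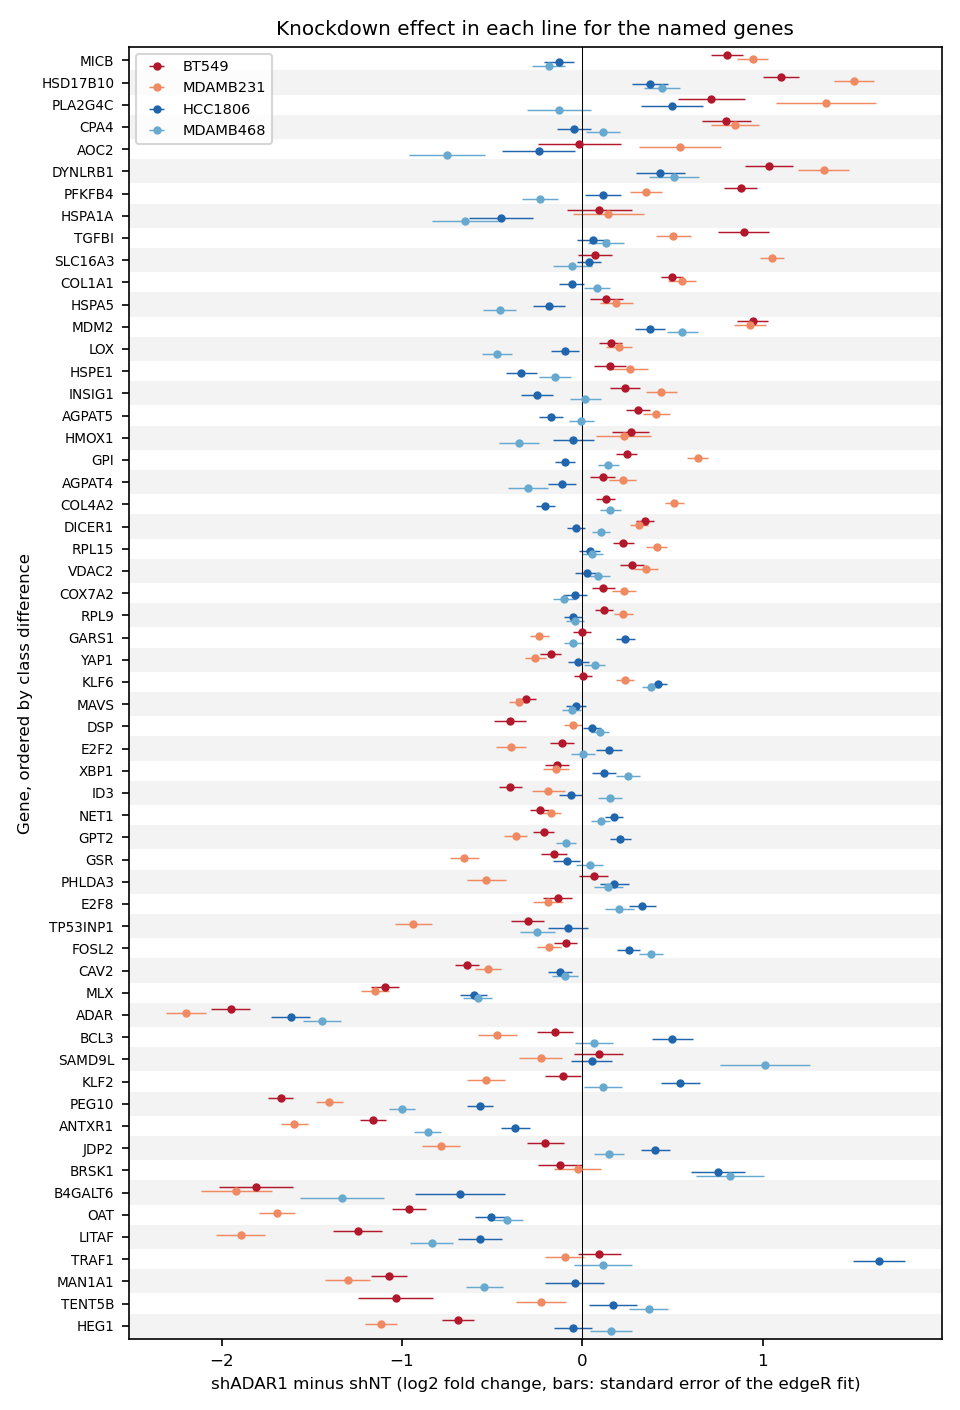
Change from shNT to shADAR1 (log2 fold change) with its standard error in each of the 4 lines for the named genes expressed in every line, ordered by class difference; red and orange points are BT549 and MDAMB231, dark and light blue points HCC1806 and MDAMB468. The red and orange points lie to the right of the blue ones at the top (MICB, HSD17B10) and to the left at the bottom (HEG1, TENT5B), while TRAF1 is set apart by HCC1806 and SLC16A3 by MDAMB231.

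The unfolded protein response raises chaperones and degradation factors when proteins misfold in the endoplasmic reticulum, through the sensors IRE1, PERK and ATF6. Of 18 such genes, 17 had a class difference above 0, with a median of 0.22, and 6 were called (33.3% against 4.59% of all tested). Among the 12181 tested genes with an average log2 CPM of at least 2, termed the more expressed genes, 7.79% were called, which is the nearer background for lists of expressed genes. The list's difference lay on the basal side: 7 of 18 fell in the basal mean and none passed in either direction in the mesenchymal mean. HSPA5, the chaperone BiP, was 3155, 3330 and 4245 CPM in HCC1806 shNT against 2640, 3184 and 3616 in shADAR1, and 412, 418 and 646 against 374, 343 and 336 in MDAMB468. In BT549 it was 1533, 1554 and 1324 CPM against 1729, 1773 and 1357, and in MDAMB231 917, 665 and 709 against 1025, 789 and 791. Each of the 6 basal pairs was lower and each of the 6 mesenchymal pairs higher in shADAR1, although the arms were separate in MDAMB468 only. Its class difference was 0.48 (SE 0.090, adjusted p = 0.0031).

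The direction of HSPA5 was shared by the co-chaperone DNAJB11 (0.28, adjusted p = 0.025), the degradation factors EDEM1 (0.30, adjusted p = 0.014) and SYVN1 (0.27, adjusted p = 0.037), and HERPUD1, which organises that degradation (0.32, adjusted p = 0.036). XBP1, the transcription factor that IRE1 activates by splicing, ran against the list at -0.33 (SE 0.067, adjusted p = 0.0058), with a basal rise of 0.19 (adjusted p = 0.023) and -0.14 in the mesenchymal mean (adjusted p = 0.052). The XBP1 call was lost without MDAMB468 and with blocks in 3 lines, whereas that of HSPA5 was kept in both. The positive calls fell from 5 to 2 without replicate 1 or 2 of BT549 or replicate 3 of HCC1806 (either arm) or MDAMB468 shADAR1 replicate 3. They were 3 without replicate 1 or 2 of HCC1806 (either arm), 1 without MDAMB468 shNT replicate 3, and 9 without MDAMB468 replicate 1 of either arm. Without a whole line they were 3 (BT549) or 1 (each other line). They were 0 without the block, where the median was 0.23.

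The promoters of HSPA5 and XBP1 are shown because both hold the endoplasmic reticulum stress element, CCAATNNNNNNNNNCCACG, while their class differences had opposite signs. The sequences are from RefSeq on GRCh38.p14 and run from 250 bases before to 50 after the start, with the element in capitals. They lie at chr9:125241294-125241593 and chr22:28800520-28800819, both on the minus strand, and the element begins 66 and 52 bases before the start.
HSPA5: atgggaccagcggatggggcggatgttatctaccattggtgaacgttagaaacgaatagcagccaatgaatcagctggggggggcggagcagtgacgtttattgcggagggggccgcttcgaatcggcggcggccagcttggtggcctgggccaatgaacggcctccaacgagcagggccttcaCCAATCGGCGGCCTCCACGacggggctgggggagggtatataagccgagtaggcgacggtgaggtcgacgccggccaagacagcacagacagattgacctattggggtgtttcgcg
XBP1: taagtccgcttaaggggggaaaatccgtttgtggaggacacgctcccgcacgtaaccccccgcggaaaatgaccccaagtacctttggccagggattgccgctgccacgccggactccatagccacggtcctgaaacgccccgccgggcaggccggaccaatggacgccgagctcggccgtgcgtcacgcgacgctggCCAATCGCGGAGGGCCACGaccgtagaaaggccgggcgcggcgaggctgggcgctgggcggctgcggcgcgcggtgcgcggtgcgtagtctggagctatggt
Searched on both strands, the element stood in 5 of the 18 promoters of the list (HSPA5, HSP90B1, CALR, XBP1 and CRELD2) and in 15 of 13771 promoters of tested genes (0.109%), and in none of the 24 matched promoters of the sterol list or the 28 of the glycolysis list. EDEM1, DNAJB11, HERPUD1 and SYVN1, which shared the direction of HSPA5, had no match in this window.

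Sterol and fatty acid synthesis genes are switched on together by SREBP factors when membrane cholesterol is low, and INSIG1 is both their target and the brake on their activation. Of 30 measured genes 20 were above 0, with a median of 0.078. The calls were 5, all positive (16.7%, against 4.59% of all tested and 7.79% of the more expressed genes). They were INSIG1 (0.45, adjusted p = 0.0036), the cholesterol carrier STARD4 (0.30, adjusted p = 0.020) and the pathway enzymes SQLE (0.26, adjusted p = 0.038), HMGCS1 (0.33, adjusted p = 0.039) and MSMO1 (0.38, adjusted p = 0.046). In HCC1806 all 5 were below 0, from -0.22 for STARD4 to -0.44 for MSMO1. MDAMB468 was mixed, with 0.04 for STARD4, 0.02 for INSIG1 and -0.22 for HMGCS1. INSIG1 and STARD4 rose in the mesenchymal mean, and HMGCS1 and MSMO1 fell in the basal mean. The positive calls of the list were 0 without HCC1806 or MDAMB231, 2 without BT549, 1 with blocks in 3 lines, and 8 with upper-quartile scaling, limma voom or no filter. They were 1 without replicate 2 of BT549 or HCC1806 in either arm, 2 without replicate 3 of any line in either arm or BT549 shNT replicate 1, and 3 without replicate 1 of HCC1806 or replicate 2 of MDAMB231 in either arm. No gene of the list was called without the block, where the median was 0.076.

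Of 33 glycolysis and hypoxia genes, 17 rose and 3 fell in the mesenchymal mean, while 1 rose and 2 fell in the basal mean. In the mesenchymal mean 6.87% of all tested genes rose, and 1385 of the 12181 more expressed ones. The class difference was above 0 in 28 of the 33, with a median of 0.15. Of the 33, 8 were called (24.2%, against 4.59% of all tested and 7.79% of the more expressed genes). GPI, the second enzyme of glycolysis, was 443, 422 and 334 CPM in BT549 shNT against 488, 484 and 441 in shADAR1 and 257, 316 and 296 against 448, 473 and 431 in MDAMB231. In HCC1806 it was 518, 477 and 542 CPM against 493, 451 and 494, and in MDAMB468 377, 351 and 380 against 394, 401 and 429. The arms were separate in MDAMB231 and MDAMB468 and overlapped in the other lines. Its class difference was 0.42 (SE 0.058, adjusted p = 0.00024), lost without MDAMB231 or HCC1806, and the mesenchymal lines differed (adjusted p = 0.029).

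SLC16A3, the lactate exporter MCT4, belonged to MDAMB231 rather than to the class. It rose there by 1.05, from 193, 179 and 203 CPM to 414, 358 and 422, but by 0.07 in BT549, which had 4.82 CPM on average in shNT. The lines differed (adjusted p = 0.00034), and without MDAMB231 the class difference of 0.57 became 0.08 (adjusted p = 0.89). The vasodilator peptide gene ADM (0.47, adjusted p = 0.0014), the mitophagy receptor BNIP3 (0.33, adjusted p = 0.018), the collagen hydroxylase P4HA2 (0.34, adjusted p = 0.0013) and the demethylase KDM3A (0.24, adjusted p = 0.018) changed in the same direction in both mesenchymal lines. TPI1, the triose phosphate isomerase, went the other way, falling in all lines, by -0.63 and -0.93 against -0.32 and -0.35 (difference -0.44, SE 0.10, adjusted p = 0.014). CA9 was called at counts of 2 to 25 in the mesenchymal shNT libraries, with 153 in 1 BT549 shADAR1 library. The list held 4 positive calls without MDAMB468 shNT replicate 3, 3 without MDAMB231, 1 without HCC1806 and 0 without the block, where the median was 0.15.

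The series title names ferroptosis and lipid genes, and the calls among these went in both directions. Of 27 ferroptosis defence genes 1 was called in each direction (7.41%, against 4.59% of all tested and 7.79% of the more expressed genes), and of 23 promoting genes 2 in each (17.4%). The positive defence calls were 0 without BT549 replicates 1 or 2, HCC1806 replicates 2 or 3, MDAMB231 replicate 2 or MDAMB468 replicate 3 (either arm). They were 2 without BT549 replicate 3 or MDAMB468 replicate 1 and 5 without MDAMB231 replicate 3. The positive promoting calls were 0 without BT549 replicate 2, HCC1806 replicates 2 or 3, MDAMB231 replicate 2 or MDAMB468 replicate 3 (either arm), 2 without MDAMB468 shNT replicate 2, 3 without MDAMB231 replicate 3 or MDAMB468 replicate 1, and 1 without any other library. The negative ones were 0 without BT549 replicate 2 of either arm or HCC1806 shNT replicate 3, 3 without MDAMB231 replicate 3, 2 without HCC1806 shADAR1 replicate 3 or MDAMB468 replicate 1, and 1 without any other library. No promoting gene was called without MDAMB231 or without HCC1806. GSR, which regenerates reduced glutathione, changed by -0.16 and -0.65 against -0.09 and 0.04 (difference -0.38, SE 0.077, adjusted p = 0.0051), with separate arms in the mesenchymal lines and a difference between them (adjusted p = 0.037). Without MDAMB231 its class difference was -0.13 (adjusted p = 0.38). HMOX1, haem oxygenase, had 0.45 (adjusted p = 0.037), lost in 14 of 24 fits without 1 library. Among promoting genes, VDAC2 (0.26, lost in 14 of 24 such fits) and the glutamine transporter SLC38A1 (0.33, adjusted p = 0.036) were positive, and YAP1 (-0.24, adjusted p = 0.019) and the polyamine acetylase SAT1 (-0.27, adjusted p = 0.038) negative. SLC38A1 was low in BT549, with 4.58, 4.44 and 13.77 CPM in shNT against 8.1, 7.4 and 13.76 in shADAR1. Its shNT and shADAR1 means were 353.5 and 394.1 CPM in MDAMB231, 483.9 and 485.9 in HCC1806, and 362.1 and 356.8 in MDAMB468. YAP1 was not called without BT549 replicate 2 of either arm or HCC1806 shNT replicate 3 (adjusted p up to 0.065). ACSL4, which loads polyunsaturated fatty acids onto coenzyme A, fell in each class mean, by -0.50 and -0.30, and its class difference of -0.20 did not pass (adjusted p = 0.099); SLC7A11, the cystine importer, rose in the mesenchymal mean by 0.49, with a class difference of 0.30 (adjusted p = 0.055).

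Among 46 lipid remodelling genes 4 were called (8.70%, against 7.79% of the more expressed genes), 3 of them acyltransferases. AGPAT5, a mitochondrial lysophosphatidic acid acyltransferase, was 70.3, 74.9 and 66.8 CPM in BT549 shNT against 83.8, 92.4 and 86.1 in shADAR1, and 24.8, 13.1 and 18.1 against 30.8, 18.7 and 23.7 in MDAMB231. In HCC1806 it was 84.2, 99.4 and 105 CPM against 83.3, 91.1 and 81.1, and in MDAMB468 33.9, 30.6 and 37.9 against 35.3, 31.1 and 35.6. All 6 mesenchymal pairs were higher, with separate arms in BT549 alone. AGPAT5 had a class difference of 0.45 (SE 0.069, adjusted p = 0.00059). AGPAT4 (0.37, adjusted p = 0.013; 0.053 without MDAMB468 shADAR1 replicate 2) and MBOAT7, which places arachidonic acid in phosphatidylinositol (0.22, adjusted p = 0.024), were also positive. CHPT1, which makes phosphatidylcholine, was negative (-0.39, adjusted p = 0.041). The list's median was -0.05, so these 3 genes do not stand for the list. Positive and negative calls, 3 and 1 here, were 5 and 5 without MDAMB231 replicate 3 of either arm, 3 and 4 without BT549, and 3 and 4 with no filter. The negative calls were 2 without BT549 replicate 3 and 0 without BT549 replicate 1, HCC1806 replicates 2 or 3, MDAMB231 replicates 1 or 2 or MDAMB468 replicates 2 or 3 (either arm). The positive ones were 1 without HCC1806.

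The MAP kinase output and immediate early list leaned to the basal side. Of 30 genes 5 were called lower and 2 higher in the mesenchymal response. That is 23.3%, against 4.59% of all tested and 7.79% of the more expressed genes. On the list 20 of 30 were below 0, with a median of -0.12. FOSL2, an AP-1 subunit, was 302, 290 and 252 CPM in HCC1806 shNT against 365, 313 and 327 in shADAR1, and 199, 152 and 188 against 272, 202 and 230 in MDAMB468. In BT549 it was 362, 343 and 342 CPM against 330, 309 and 343, and in MDAMB231 449, 444 and 491 against 336, 422 and 470. Shifts were up in both basal lines, with separate arms, and the arms overlapped in both mesenchymal lines. FOSL2 thus had a class difference of -0.46 (SE 0.066, adjusted p = 0.00033). KLF6 (-0.28, adjusted p = 0.0024) and KLF10 (-0.39, adjusted p = 0.0051) rose in each class mean and rose further in the basal one. For KLF10 the basal rise was 0.92 in HCC1806 and 0.21 in MDAMB468 (adjusted p of their difference = 0.0063).

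The ERK phosphatases DUSP6 (-0.44, adjusted p = 0.0083) and DUSP4 (-0.30, adjusted p = 0.035) fell in the mesenchymal mean, mainly in BT549 (-0.81 and -0.49). The EGF receptor ligand HBEGF (0.47, adjusted p = 0.0032) rose in both mesenchymal lines, and ETV4 (0.35, adjusted p = 0.028) in MDAMB231 only, with -0.04 in BT549. The list's median was 0.056 without BT549, so its sign depended on that line, and -0.24 without MDAMB231. Higher and lower calls were 2 and 9 without replicate 1 of MDAMB468 in either arm, 4 and 2 without BT549, 1 and 10 without MDAMB231, and 0 and 2 without HCC1806. No call was made without the block.

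Of 28 mesenchymal genes 7 had a class difference above 0, with a median of -0.21. Of the 28, 5 were called (17.9%, against 4.59% of all tested and 7.79% of the more expressed genes). LOX was higher, and CAV2, FN1 (-0.43, adjusted p = 0.00088), VIM (-0.38, adjusted p = 0.0084) and FSTL1 (-0.44, adjusted p = 0.015) were lower. VIM, the intermediate filament of mesenchymal cells, rose in both class means, by 0.19 and 0.57, but its basal levels were 1.68 to 14.8 CPM in shNT, against 1934 to 4545 in the mesenchymal lines. FN1, fibronectin, rose in the basal mean by 0.45, where its shNT libraries lay between 40.1 and 225 CPM. The lower calls of the list were 2 without HCC1806 and 7 without BT549. Of 31 epithelial genes 5 were called (16.1%, against the same 4.59% and 7.79%). Of these, 4 (ST14, OVOL1, CDH1 and KRT19) were near background in a mesenchymal line. CDH1 had 2 to 10 counts in BT549 shNT and 11 to 13 in shADAR1, 0 to 5 and 2 to 16 in MDAMB231, and 5010 to 13985 in basal shNT. ST14, a membrane serine protease, had 2 to 6 counts in BT549 shNT against 10 to 27 in shADAR1, and 4 to 30 against 26 to 57 in MDAMB231. The epithelial calls therefore rest on a few reads in the mesenchymal lines, and the positive calls were 2 without replicate 1 or replicate 3 of BT549 in either arm. DSP, a desmosome protein, was the lower call (-0.30).

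Of 40 collagen, laminin and integrin genes 7 were called, 6 of them positive. That is 17.5%, against 4.59% of all tested and 7.79% of the more expressed genes. COL1A1, the main chain of fibrillar collagen I, was 5221, 4693 and 4416 CPM in BT549 shNT against 6948, 6447 and 6784 in shADAR1. In MDAMB231 it was 13.4, 9.62 and 15.5 CPM against 22.5, 12.9 and 22.7, so the rises of 0.50 and 0.55 came from levels far apart. The basal lines changed by -0.06 and 0.08, and the class difference was 0.51 (SE 0.070, adjusted p = 0.00024). COL4A2 of basement membranes (0.34, adjusted p = 0.00070; lost without MDAMB231 or HCC1806), the laminin chain LAMB3 (0.30, adjusted p = 0.011) and ITGB5 (0.31, adjusted p = 0.015) were positive and LAMA3 (-0.49, adjusted p = 0.0029) negative. COL6A2 was called on 0 to 11 counts in MDAMB468. The positive calls were 2 without replicate 2 of BT549 in either arm, 3 without HCC1806 shADAR1 replicate 3 and 2 without HCC1806. TGFBI, a matrix protein induced by TGF-beta, had a class difference of 0.61 (SE 0.11, adjusted p = 0.0021) and the BMP target ID3 one of -0.34 (adjusted p = 0.0087). They were the only calls among 22 genes of that list (9.09%, near the 7.79% of the more expressed genes). Its positive calls were 3 without BT549, MDAMB468 or HCC1806 replicate 1 of either arm, and 2 without BT549 replicate 3, MDAMB231 replicate 3 or MDAMB468 replicate 1. The negative ones were 2 without replicate 3 of BT549 or MDAMB231 and 0 without BT549 or MDAMB468.

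Of 42 interferon-stimulated genes 1 was called (2.38%, below the 4.59% of all tested), and 18 of 42 were above 0. In the mesenchymal mean 2 rose and 2 fell, and in the basal mean 1 rose. The called gene, SAMD9L, an antiviral translation inhibitor, had -0.60 (adjusted p = 0.038). It changed by 1.01 in MDAMB468 and 0.05 in HCC1806 and was lost in 14 of 24 fits without 1 library. In MDAMB468 its mean was only 0.58 CPM in shNT and 1.14 in shADAR1. Of 22 genes of double-stranded RNA sensing 4 were called (18.2%, against 4.59% of all tested and 7.79% of the more expressed genes), 1 higher and 3 lower. The lower calls were 1 without HCC1806 replicates 2 or 3 of either arm, BT549 shNT replicates 1 or 3 or MDAMB468 shADAR1 replicate 3, and the higher ones 3 without MDAMB231 replicate 3 of either arm. MAVS, the mitochondrial adaptor of MDA5 and RIG-I, was 521, 507 and 486 CPM in BT549 shNT against 411, 387 and 423 in shADAR1, and 290, 341 and 329 against 208, 281 and 268 in MDAMB231. In HCC1806 it was 177, 169 and 171 CPM against 169, 158 and 177, and in MDAMB468 261, 265 and 249 against 240, 255 and 250. The arms were separate in the mesenchymal lines and overlapped in the basal lines, giving a class difference of -0.28 (SE 0.055, adjusted p = 0.0039). The double-stranded RNA binding proteins STAU1 (-0.20, adjusted p = 0.033) and STAU2 (-0.37, adjusted p = 0.027) were also lower. DICER1, which cuts microRNA precursors, rose by 0.35 and 0.31 in BT549 and MDAMB231 with -0.03 and 0.10 in the basal lines (difference 0.30, SE 0.049, adjusted p = 0.0012), lost without HCC1806.

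Integrated stress response genes are driven by ATF4 after phosphorylation of eIF2alpha. Of 31, 11 rose and 4 fell in the mesenchymal mean, and 9 rose and 0 fell in the basal mean. In the mesenchymal mean 6.87% of all tested genes rose, and 1385 of the 12181 more expressed ones. In the basal mean 2.53% of all tested genes rose, and 516 of the more expressed ones. Class differences passed in 4 of the 31, all negative. That is 12.9%, against 4.59% of all tested and 7.79% of the more expressed genes. GPT2, GARS1 and XPOT fell in the mesenchymal mean, and ASNS rose in the basal mean. The differences were GPT2 (-0.35, adjusted p = 0.0014), GARS1 (-0.21, adjusted p = 0.019), ASNS (-0.39, adjusted p = 0.023) and XPOT (-0.24, adjusted p = 0.044). ASNS, asparagine synthetase, rose by 0.88 in HCC1806 and by 0.10 in MDAMB468 (adjusted p of their difference = 0.013), and GPT2 and GARS1 were called neither without HCC1806 nor without MDAMB231. GARS1 was also lost without BT549 replicate 2 or HCC1806 replicate 1 of either arm or MDAMB468 shNT replicate 2 (adjusted p up to 0.057). The negative calls of the list were 1 or 2 without BT549 replicates 1 and 2 or HCC1806 replicate 1 of either arm or MDAMB468 shNT replicate 2. They were 0 without MDAMB231, 1 without HCC1806 and 7 without MDAMB468. Positive calls, 0 here, were 4 without MDAMB231 replicate 3 of either arm, against 3 negative ones, and 1 without BT549 replicate 3 or MDAMB468 replicate 1. Of 23 p53 targets 3 were called (13%, against 4.59% of all tested and 7.79% of the more expressed genes), all lower in the mesenchymal response. They were TP53INP1 (-0.46, adjusted p = 0.010), PHLDA3 (-0.40, adjusted p = 0.011) and TP53I3 (-0.39, adjusted p = 0.041). For TP53INP1 and PHLDA3 the mesenchymal lines differed from each other (adjusted p = 0.032 and 0.039), and without MDAMB231 the class differences were -0.14 and -0.10. TP53INP1 was not called without HCC1806 shNT replicate 3 (adjusted p = 0.055), which left 1 call in the list. The list held no call without MDAMB231 or without HCC1806.

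Small positive differences ran through the ribosomal and respiratory genes without passing in most of them. Of 78 cytosolic ribosomal protein genes 69 were above 0, with a median of 0.090, and 4 were called (5.13%, near the background), among them RPL15 (0.27, adjusted p = 0.0085) and RPL9 (0.22, adjusted p = 0.013). In the mesenchymal mean 20 of the 78 rose, against 1385 of the 12181 more expressed genes, and in the basal mean none passed. Reads of these genes can be shared with processed pseudogenes. RPL9 was not called without HCC1806 shADAR1 replicate 3 (adjusted p = 0.068), and the list held 13 calls without MDAMB231 replicate 3 of either arm, 8 without BT549 replicate 1, 3 without MDAMB231 replicate 2 or MDAMB468 replicate 1, and 1 or 2 without any other library. Of 74 nuclear respiratory chain genes 58 were above 0, with a median of 0.063. Only COX7A2 was called (1.35%, below the 4.59% of all tested), and it was lost in 21 of 24 fits without 1 library. None of 13 genes of the mitochondrial genome was called, and 2 of them were above 0. Without MDAMB231, 45 of the 78 ribosomal genes were above 0 and their median was 0.015. Upper-quartile scaling moved the median over all genes by 0.017.

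Of 35 cell cycle genes 3 were called lower (8.57%, near the 7.79% of the more expressed genes), the atypical E2F member E2F8 (-0.43, adjusted p = 0.0024), E2F2 (-0.33, adjusted p = 0.010) and CENPA (-0.25). E2F8 was lost without HCC1806, and E2F2 without MDAMB231 or HCC1806. E2F8 rose in the basal mean by 0.27 and E2F2 fell in the mesenchymal mean by 0.25. PTGES, which makes prostaglandin E2, was the only call among 26 cytokine and NF-kappaB genes (3.85%, below the 4.59% of all tested). It changed by -1.22 and -1.97 against -0.38 and -0.65 (difference -1.08, SE 0.23, adjusted p = 0.0086). It had 36 to 53 counts in BT549 shNT and was not called without replicate 2 of BT549 in either arm (adjusted p up to 0.052). MLX was the only call among 13 MYC-MAX-MLX network genes (7.69%) and DICER1 among 12 microRNA pathway genes (8.33%). Both shares were near the 7.79% of the more expressed genes. None of 17 antigen presentation genes and none of 7 blood and endothelial genes was called.

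**Figure D4:**
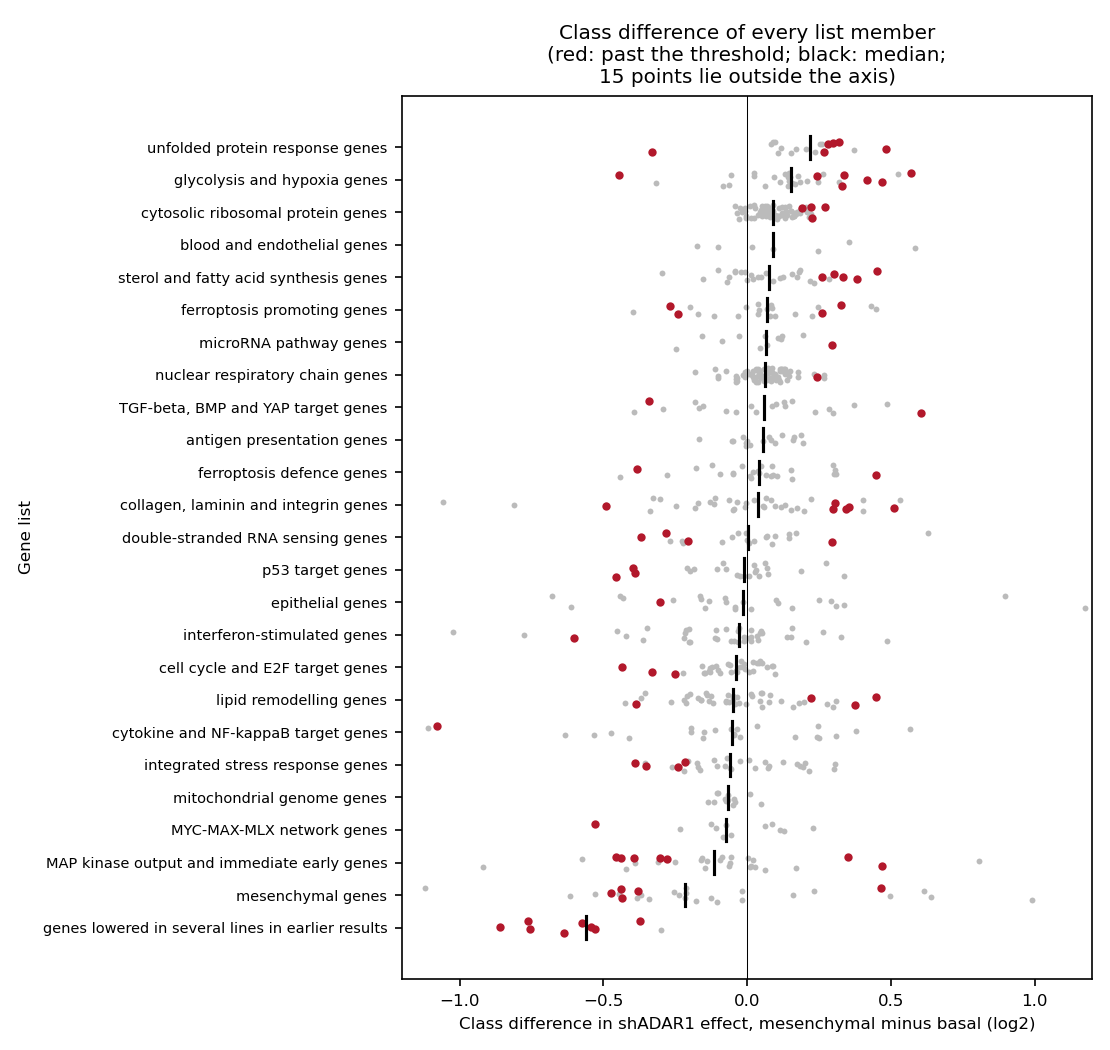
Class difference (log2, mesenchymal minus basal) of every member of the 25 gene lists, one row a list ordered by its median; red points are past the threshold, grey points are not, black bars are list medians, and 15 points lie outside the axis. Unfolded protein response genes lie to the right of 0 with XBP1 as the exception within the list, and the genes lowered in earlier results lie to the left, except TMCC3, which is outside the axis.

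Some of the largest fitted differences came from genes nearly absent in a line and are given as counts. KRT6A, a keratin, had 0, 0 and 0 counts in BT549 shNT and 4, 2 and 6 in shADAR1, and 0, 0 and 2 against 2, 1 and 15 in MDAMB231, while HCC1806 had 37233 to 104621 in shNT. SERPINB5, maspin, had 0 in all 6 mesenchymal shNT libraries and 3 to 12 in MDAMB231 shADAR1. RSPO3, a Wnt agonist, had 0 in all 6 basal shNT libraries, 2, 2 and 6 in HCC1806 shADAR1 and 0, 2 and 6 in MDAMB468 shADAR1. TXNIP, a glucose-responsive arrestin, had 0, 0 and 0 in MDAMB468 shNT and 6, 4 and 2 in shADAR1, but it also changed by -0.85 in BT549 and -0.73 in MDAMB231 with separate arms. The 4 differences passed (adjusted p = 0.00041 for KRT6A, 0.039 for SERPINB5, 0.021 for RSPO3 and 0.0054 for TXNIP). SERPINB5 was lost in 14 of 24 fits without 1 library, RSPO3 without replicate 3 of HCC1806, MDAMB231 or MDAMB468 in either arm, and TXNIP without MDAMB468 replicate 1 in either arm (adjusted p = 0.052). Of the 981 calls, 98 (9.99%) had a mean under 1 CPM in at least 1 line, against 47.3% of all tested genes.

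Response and level were related among the called genes. The shNT level differed between classes for 13108 of the genes tested (61.4%) and for 806 of the 981 called. Of the 609 genes with the lower mesenchymal response, 50.4% had the higher level in the mesenchymal lines, against 29.9% of all tested genes. Of the 372 with the higher response, 56.2% had the lower level there, against 31.5% of all tested. The shNT libraries enter both the level and the response, so these shares are not independent of each other.

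The 24 genes called with and without the block had 8 higher and 16 lower mesenchymal responses. Of these, ANTXR1, SPOPL, DESI2, MLX, OAT, SLC35A4, ECE1, WDR82 and SMS fell in both class means, and HSD17B10, TMED4 and EIF4EBP2 rose in both. In each of these 12 the mesenchymal change was the larger. SPOPL, a substrate adaptor of the CUL3 ubiquitin ligase, changed by -1.15 and -1.50 in the mesenchymal lines and by -0.48 and -0.65 in the basal lines (difference -0.76, adjusted p = 5.50e-05, 0.015 without the block). The other 12 passed in the mesenchymal mean alone: MICB, ST14, ERO1A, RNF149 and PRELID3B rose, and LZTS3, ARRB2, NEDD4, CDKN2C, NHERF1, NSF and MRPS10 fell. ARRB2, beta-arrestin 2, changed by -0.34 and -1.16 (adjusted p of their difference = 0.0017) against 0.00 and -0.06, and the cell cycle inhibitor CDKN2C by -0.71 and -0.44 against -0.02 and 0.19. LZTS3, a postsynaptic scaffold protein, was the most even, with -0.45 and -0.44 against 0.14 and 0.13 (difference -0.59, adjusted p = 0.00015, 0.015 without the block).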

How the data were processed

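RNA-seq of 24 libraries was analysed, 3 biological replicates of shADAR1 and 3 of shNT in each of BT549, MDAMB231, HCC1806 and MDAMB468. RNA was depleted of ribosomal RNA, per the labels' protocols. The submitters' processing notes name bcl2fastq, STAR, Subread, featureCounts and edgeR, while the genome build, the annotation and the use of strand are not given in the sources used here, so reads of overlapping and antisense genes cannot be told apart. The authors deposited per gene the raw count, the CPM and the RPKM of each library. The deposited CPM equalled the count's share of the library total, and the RPKM were not used. Total counts of 10370645 to 97218217 set the precision, and intervals cover only the spread between these libraries.

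Counts of 21352 of 37416 genes passed filterByExpr over the 8 groups. They were TMM-scaled (factors 0.924 to 1.12) and fitted with the quasi-likelihood test of edgeR 4.0.16 in R 4.3.3, in 1 model with 12 line-by-replicate blocks and 4 knockdown terms (8 residual degrees of freedom). Benjamini-Hochberg adjustment covered all 21352 genes, and calls needed an adjusted p under 0.05. CPM in the text are TMM-scaled. The deviations of same-numbered shADAR1 and shNT libraries correlated at 0.139, 0.158 and 0.25 in BT549, 0.204, 0.348 and 0.149 in MDAMB231, 0.242, 0.332 and 0.443 in HCC1806, and 0.165, 0.166 and 0.0651 in MDAMB468, the last pair being under 0.1. No 2 libraries of a group were alike within sampling noise.

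The model was tested on simulated data of this comparison with 21352 genes. Changes of 0.5, 1 and 1.5 log2 were put into the mesenchymal lines of 67, 67 and 66 genes with an average log2 CPM of at least 2. The model recovered 82.1%, 86.6% and 95.5% of these, with 7 false calls. The noise followed the mean trend of the spread in the paired fit, without a spread for each gene, so these figures hold under that model only. Recovery in genes with a lower average was not tested. Recovery below 0.5 log2 was not tested, although the median size among called genes was 0.345. Whether the pairing of the libraries holds was not tested in this way. Genes named were ADAR and MDM2, the 8 largest differences in each direction among called genes with at least 1 CPM in every line, an average log2 CPM of at least 2 and both lines of a class on 1 side, the 4 with the smallest p in each direction among those of opposite sign, 2 of each of 25 gene lists, and 4 of the largest among genes under 1 CPM in a line. The members, the lists and the naming rule were chosen with earlier results of these data known, and other genes were named after their values were seen. One gene that the rule names is not reported here. Alternatives were no block, blocks in 3 lines, RLE and upper-quartile scaling, DESeq2 1.42.0, limma 3.58.1 (voom, and lines as the unit), other filters, and leaving out each line and each library. 3′ UTRs were taken from GENCODE 29 and promoters from RefSeq.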

Additional observations from a re-analysis of the deposited data

Results flagged for a closer look

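The 64 genes named by rule were singled out because their response differed between the line classes by the test of that difference. Groups of 3 libraries are too small for a test of single outlying libraries, which needs at least 4. The class differences (log2, mesenchymal minus basal) follow by role, and no explanation was weighed.

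For the target and MDM2 they were -0.544 and 0.472. Among the largest higher responses they were 1.03 for MICB, 0.896 for HSD17B10, 0.85 for PLA2G4C, 0.789 for CPA4, 0.758 for AOC2, 0.718 for DYNLRB1, 0.678 for PFKFB4 and 0.668 for HSPA1A. Among the largest lower responses they were -0.957 for HEG1, -0.90 for TENT5B, -0.893 for MAN1A1, -0.881 for TRAF1, -0.868 for LITAF, -0.865 for OAT, -0.86 for B4GALT6 and -0.859 for BRSK1. The graded falls PEG10, ANTXR1 and MLX had -0.756, -0.761 and -0.531. Responses of opposite sign were 0.466 for LOX, 0.456 for HSPE1, -0.77 for JDP2, -0.343 for NET1, -0.649 for KLF2 and -0.594 for BCL3.

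In RNA sensing and stress responses the values were -0.603 for SAMD9L, 0.296 for DICER1, -0.283 for MAVS, -0.352 for GPT2, -0.214 for GARS1, 0.482 for HSPA5, -0.33 for XBP1, -0.456 for TP53INP1 and -0.396 for PHLDA3. In ferroptosis and lipid genes they were -0.383 for GSR, 0.448 for HMOX1, -0.241 for YAP1, 0.259 for VDAC2, 0.45 for AGPAT5, 0.374 for AGPAT4 and 0.453 for INSIG1. In cell state, adhesion and matrix genes they were 1.29 for ST14, -0.304 for DSP, -0.472 for CAV2, 0.512 for COL1A1, 0.344 for COL4A2, 0.605 for TGFBI and -0.339 for ID3. In metabolism and ribosomes they were 0.418 for GPI, 0.57 for SLC16A3, 0.244 for COX7A2, 0.273 for RPL15 and 0.221 for RPL9. In cell cycle and signalling they were -0.433 for E2F8, -0.329 for E2F2, -1.08 for PTGES, -0.457 for FOSL2 and -0.28 for KLF6. For genes nearly absent in a line only the adjusted p is given: 0.0392 for SERPINB5, 0.000412 for KRT6A, 0.0207 for RSPO3 and 0.00537 for TXNIP.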

How the results depend on the processing

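The count of 981 class differences depended first on the replicate block. Without the block it was 24, the within-class differences fell from 180 to 0 (MDAMB231 against BT549) and from 30 to 1 (HCC1806 against MDAMB468), and the class means passed for 663 genes (mesenchymal, from 2947) and 42 (basal, from 863). With the replicate block in 3 lines, leaving out MDAMB468, it was 440. It was 1500 with DESeq2, 0 with lines as the unit (1932 at an unadjusted p under 0.05), 354 without MDAMB231 and 331 without HCC1806. Leaving out 1 library gave 521 to 1245, moving by over 1.5 times without BT549 replicate 2 (534 without shADAR1, 533 without shNT), HCC1806 replicate 3 (578 and 521) or MDAMB468 replicate 3 (587 and 636). RLE (1020) and upper-quartile scaling (1026), limma voom (986), no filter (1432), at least 10 counts in every library (1342), no mitochondrial and structural RNA genes (1123), and leaving out BT549 (1097) or MDAMB468 (849) stayed within 1.5 times. The ADAR difference was -0.55 without the block (adjusted p = 0.187), -0.54 with lines as the unit (limma, adjusted p = 0.358) and -0.42 without MDAMB231 (adjusted p = 0.126). Without 1 library it was -0.66 to -0.48 and passed in all 24 fits, of which the 2 for each of the 12 pairs largely repeat each other. No named gene changed sign in any of these alternatives, several of which change the error but hardly the estimate. In all 24 fits without 1 library 47 of 64 stayed past the threshold. The named genes past it were 46 with blocks in 3 lines and 6 without the block. Of the named calls 29 were lost without MDAMB231, 28 without HCC1806, 14 without MDAMB468 and 7 without BT549. The least deeply sequenced library held 10370645 counts, which limits genes with few counts in a line most.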
